A study of Mus musculus with 2 samples.

Results

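This account follows 10 genes of cholesterol efflux, oxysterols and the liver X receptors (LXR) in dendritic cells (DC), the antigen-presenting cells of the immune system. The members were set by name: Nr1h3, Nr1h2, Ch25h, Abca1, Abcg1, Apoe, Mylip, Npc1, Npc2 and Soat1. Each was found by its Entrez Gene number in both deposited tables, so 10 of the 18090 gene identifiers in either table are members. The design compares the transcriptome of immature and mature DC, with 1 RNA library of each. Both groups are C57BL/6 bone marrow cells grown for 6 days with GM-CSF (10 ng/ml) and IL-4 (1 ng/ml), and both were sorted on surface CD86 and I-Ab, with gates that are not given. The mature DC had also had LPS, a bacterial cell wall component, at 100 ng/ml for 24 h. The labels assign LPS to "sample 2", taken here as the mature library, and do not say whether the immature cells were cultured for that extra time. How many animals gave marrow is not stated.

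Cells cannot break down the sterol ring, so surplus cholesterol is exported, stored as ester or turned into oxysterols, which are oxidised forms of cholesterol. Oxysterols are ligands of LXR, nuclear receptors that pair with RXR on DNA and raise genes of cholesterol export, while the SREBP factors raise genes of synthesis and uptake when sterols are scarce. In macrophages and DC the same pathway handles cholesterol from engulfed cells and lipoproteins, and 25-hydroxycholesterol, one of the oxysterols, is known as an antiviral and immune mediator.

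The LXR/RXR pair classically binds direct repeats of a hexamer spaced by 4 bases (DR4). RefSeq promoters (GRCm38.p6, 250 bases before to 50 after a start) were in hand for 8 of the 10 members, and both strands were searched for the DR4 pattern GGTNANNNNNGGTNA. No promoter was in hand for Abcg1 or Npc1, so these were not searched. Of the 11 promoters of the 8 members, only that of Abca1 held it, against 0.718% of all 32851 promoters of that length. The Abca1 promoter is shown because this member differed most between the libraries. It lies at chr4:53159846-53160145 on the minus strand, and the capitals mark an E-box (CACGTG, starting 147 bases before the start) and the DR4 match (67 to 53 bases before it), which do not overlap.
Abca1 promoter: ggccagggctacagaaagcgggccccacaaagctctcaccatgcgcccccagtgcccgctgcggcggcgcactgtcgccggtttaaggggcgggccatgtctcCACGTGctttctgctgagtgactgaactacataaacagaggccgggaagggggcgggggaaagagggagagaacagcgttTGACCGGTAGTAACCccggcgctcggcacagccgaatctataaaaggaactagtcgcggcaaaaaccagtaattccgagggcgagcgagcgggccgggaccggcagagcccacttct

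Of 14 other LXR target genes with a promoter in the same table, Fasn and 1 of the 3 promoters of Srebf1 held the pattern too. The matches are set side by side because these genes did not move together, as shown further on. Capitals mark the match, which reads as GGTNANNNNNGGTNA on the opposite strand. The windows lie at chr4:53159942-53159968 for Abca1, chr11:60210633-60210659 for Srebf1 and chr11:120824752-120824778 for Fasn, all on the minus strand of GRCm38.p6.
Abca1: agcgttTGACCGGTAGTAACCccggcg
Srebf1: cgacagTGACCGCCAGTAACCccagcg
Fasn: ccacgaTGACCGGTAGTAACCccgcct
The capitals of Abca1 and Fasn are the same 15 letters. The E-box stood in 7.15% of all promoters and, among the 8 members searched, in that of Abca1. A pair of GAAA boxes spaced by 2 bases, the pattern of interferon-stimulated response elements, stood in 3.44% of promoters and in 0 of the 8 members. A match is a run of letters and was not tested for binding.

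The libraries held 7.56 M (immature) and 8.07 M (mature) uniquely placed reads counted to genes. The members took 11207 and 24788 of them, between 33 and 11421 reads per gene and library, and reads covered 46.6% to 98.6% of each gene model. Levels are given as RPKM, reads per 1000 bases of gene model and per 1000000 counted reads. A ratio divides the mature by the immature RPKM, and the parentheses hold its exact 95% interval from read counting alone. Neither state was replicated, so no test was made and each difference is one between these libraries. Genes are called higher or lower where log2 of (mature RPKM + 1) over (immature RPKM + 1) is past 2-fold; the added 1 RPKM makes folds of low genes look smaller. The call was open to the 11547 genes that reached 1 RPKM in either library. In bulk RNA of this kind, fewer cells of a type and less RNA per cell cannot be told apart.

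All 10 members passed the filter of 1 RPKM. In the mature library 2 were at least 2-fold higher (Abca1 and Npc2), 2 at least 2-fold lower (Ch25h and Apoe) and 6 within 2-fold. Over all compared genes the same fold was passed upward by 9.05% and downward by 11.3%, so the members' shares, 20.0% each way, rest on 2 genes each. Their median log2 fold was 0.23, beside 0.026 for all compared genes. Of the 10 ratios, 5 had an interval above 1, 2 below 1, and 3 held 1.

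**Figure D1:**
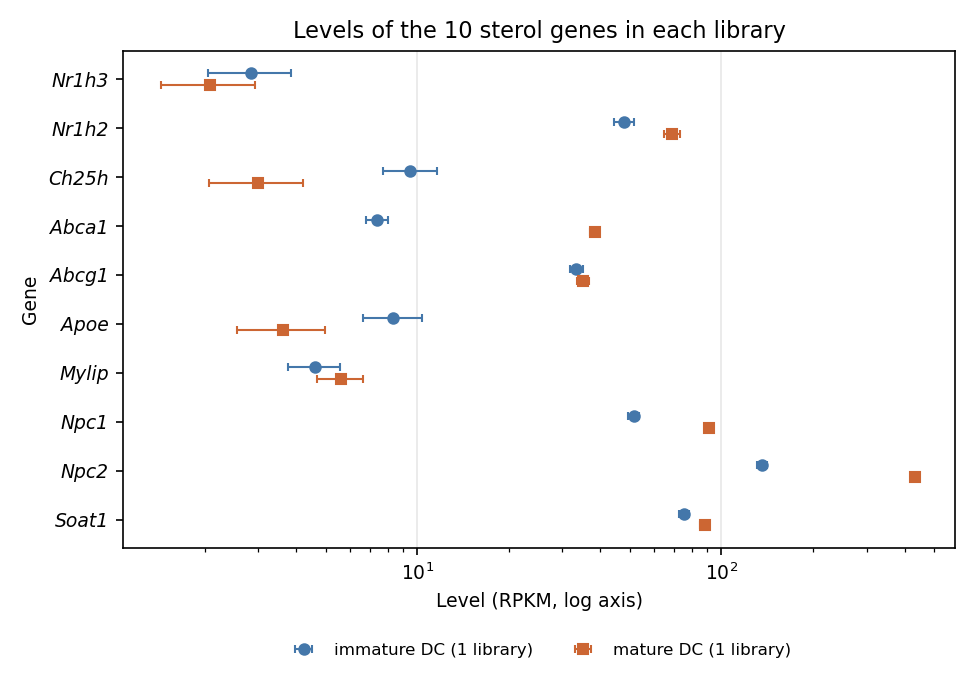
Level of each of the 10 genes in RPKM (log axis) in the immature library (circles) and the mature library (squares), 1 library each; bars are exact 95% Poisson counting intervals. Abca1 moved from 7.36 to 38.3 RPKM and Npc2 from 136 to 432 RPKM, while Ch25h and Apoe were lower in the mature library.

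The LXR receptors were at very different levels. Nr1h2 (Entrez Gene 22260) encodes LXRβ, the form found in most tissues, and went from 48.0 RPKM in the immature to 68.7 RPKM in the mature cells, a ratio of 1.43 (1.30 to 1.58). Nr1h3 (22259) encodes LXRα, known from liver, fat and macrophages, and stood at 2.84 and 2.09 RPKM. Its ratio of 0.736 (0.452 to 1.19) rests on 42 and 33 reads, the interval holds 1, and the non-coding gene Gm13783 overlaps its exons on the same strand. Per length, Nr1h2 was 16.9 times (12.4 to 23.7) the level of Nr1h3 in the immature library and 32.9 times (23.3 to 48.0) in the mature one. Nr1h2 thus made up most LXR transcript as counted in both libraries, with reads over 50.2% and 46.6% of the Nr1h3 gene model. Neither receptor gene was called 2-fold different between them, though the Nr1h3 interval reaches 2.21-fold lower.

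Ch25h (12642) encodes cholesterol 25-hydroxylase, the enzyme that makes 25-hydroxycholesterol and so a ligand of LXR. The immature cells had 9.49 RPKM of it (98 reads) and the mature cells 2.99 RPKM (33 reads), which is 3.17-fold lower (2.12 to 4.86). Among all compared genes, 717 had a lower log2 fold. Ch25h has 1 exon in the GENCODE M21 annotation, where the non-coding gene Gm26902 overlaps it on the other strand. The counting is not stated to use strand, so reads of overlapping genes on opposite strands cannot be told apart.

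The genes of efflux to outside acceptors went separate ways. Abca1 (11303) encodes the transporter that loads cholesterol and phospholipid onto lipid-poor apolipoprotein A-I, and it went from 7.36 RPKM (571 reads) in the immature to 38.3 RPKM (3172 reads) in the mature cells. This is a ratio of 5.20 (4.76 to 5.70), and 144 of the compared genes had a higher log2 fold than the 2.23 of Abca1. Its place among all levels went from percentile 41.1 to 82.6. Abcg1 (11307) encodes the transporter that passes cholesterol on to formed high-density lipoprotein, and it was close to level, at 33.3 and 35.1 RPKM, ratio 1.05 (0.980 to 1.13). Abca1 was therefore at 0.221 times (0.200 to 0.243) the level of Abcg1 in the immature and at 1.09 times (1.03 to 1.16) in the mature library. Apoe (11816), a secreted apolipoprotein that accepts cholesterol, was low in both, at 8.35 RPKM (80 reads) and 3.62 RPKM (37 reads), 2.31-fold lower (1.54 to 3.51) in the mature library.

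Apoe lay just past the 2-fold line, at a log2 fold of -1.02. It was within 2-fold after rescaling the libraries to a common sum of RPKM, with or without the 50 most abundant genes, and its counting interval reaches inside 2-fold. Neither Apoe nor Ch25h passed 2-fold with a pseudocount of 5 RPKM in place of 1. Abca1 and Npc2 kept their calls under every normalization, pseudocount, filter and coverage alternative run, and at a 4-fold line 1 member was left, Abca1.

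Markers of other cells also differed between the libraries. The marker counts stand beside 9.05% higher and 11.3% lower over all compared genes. Of 14 compared macrophage and monocyte markers, 7 were lower in the mature library and 1 higher, and their summed level was 9650 RPKM in the immature against 2356 RPKM in the mature cells. This list shares Mertk and Marco with lists given further on. Its most abundant gene, Lyz2, went from 8168 to 1324 RPKM, Cd68 from 684 to 392 and Cd14 from 146 to 328, while Vsig4 was not listed in either library. All 10 neutrophil and granulocyte precursor markers were lower, with sums of 6783 and 858 RPKM, led by S100a9, S100a8 and Ngp. All 6 compared eosinophil, basophil and mast cell markers were lower too, with sums of 395 and 13 RPKM, led by Ear2, Prg2 and Epx, and Ms4a2 was not listed. B, T and NK cell markers summed to 3.09 and 2.57 RPKM, led by Cd3g, Cd3e and Cd79a. Erythroid and stromal markers summed to 0.875 and 0.481 RPKM, led by Col1a1, Col1a2 and Pdgfra. Their part in the lower values of Ch25h and Apoe, or in any other member, was not tested. Of the 10 DC markers, 5 were higher and 3 lower in the mature library. The higher ones were Ccr7 at a ratio of 18.4, Cd83 at 8.83, Cd86 at 5.82, Flt3 at 4.54 and Zbtb46 at 2.93. Cd86 encodes a protein used in the sort. H2-Ab1, a gene of the other sorted protein, I-Ab, was not higher. It stood at 1256 and 978 RPKM, a ratio of 0.779 that is within 2-fold, with an interval below 1. The lower ones were Itgax, at 407 and 148 RPKM and 2.75-fold lower, Dpp4, 2.44-fold lower, and Cd209a, which went from 65 reads to 0.

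Mylip (218203) encodes a ubiquitin ligase, also called IDOL, which marks lipoprotein receptors for breakdown and is a known LXR target. It stood at 4.61 RPKM (104 reads) and 5.61 RPKM (135 reads), ratio 1.22 (0.935 to 1.59), an interval that holds 1.

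Both genes of cholesterol exit from lysosomes were higher in the mature library. Npc2 (67963) encodes the soluble carrier that hands cholesterol to the membrane protein encoded by Npc1, and it was the most abundant member in both libraries. Npc2 stood at 136 RPKM (3369 reads) and 432 RPKM (11421 reads), ratio 3.18 (3.06 to 3.30), and it reached percentile 99.1 of levels in the mature library. Npc1 (18145) stood at 51.6 RPKM (2031 reads) and 90.8 RPKM (3820 reads), ratio 1.76 (1.67 to 1.86), short of 2-fold. Npc2 was at 2.64 times (2.49 to 2.79) the level of Npc1 in the immature and 4.75 times (4.58 to 4.93) in the mature library. The Npc1 exons overlap those of Rmc1 and of the antisense gene Gm15956 on the opposite strand. Rmc1 was listed with 846 and 972 reads.

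Soat1 (20652) encodes the enzyme that esterifies cholesterol for storage in droplets. It stood at 75.5 RPKM (2731 reads) and 88.0 RPKM (3399 reads), ratio 1.17 (1.11 to 1.23). Of related genes, chosen after their values were seen, Soat2, the form known from gut and liver, stood at 0.995 and 2.16 RPKM. Nceh1, which encodes a hydrolase of cholesterol ester, stood at 13.7 and 10.9 RPKM, so Soat1 was at 5.52 times (5.0 to 6.11) its level in the immature and 8.04 times (7.24 to 8.96) in the mature library. Lipa, the lysosomal acid lipase that frees cholesterol from engulfed ester, was above Soat1 in level in both libraries, at 143 and 90.9 RPKM, and 1.58-fold lower (1.49 to 1.66) in the mature library.

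**Figure D2:**
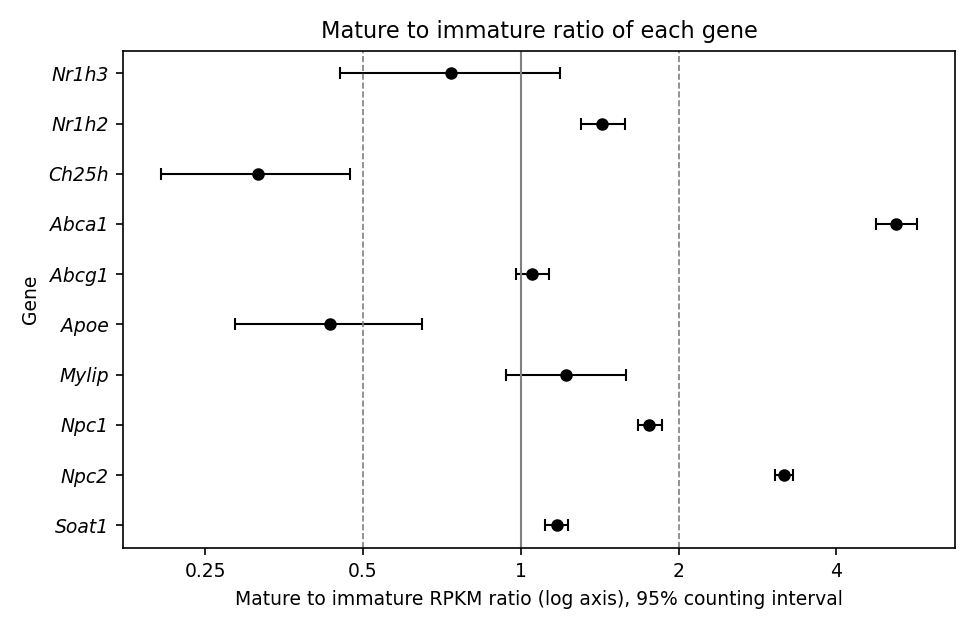
Mature to immature RPKM ratio of each of the 10 genes (log axis), with exact 95% counting intervals as bars; the solid line marks a ratio of 1 and the dashed lines mark 2-fold. Abca1 at 5.20 and Npc2 at 3.18 lie wholly to the right of the dashed lines, Ch25h at 0.315 lies wholly to the left, and the bar of Apoe crosses the line.

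The order of the members by level kept Npc2 at the top and Nr1h3 at the bottom in both libraries. In the immature library it ran Npc2, Soat1, Npc1, Nr1h2, Abcg1, Ch25h, Apoe, Abca1, Mylip, Nr1h3. Npc1 and Nr1h2, Ch25h and Apoe, and Apoe and Abca1 could not be ordered beyond counting error there. In the mature library it ran Npc2, Npc1, Soat1, Nr1h2, Abca1, Abcg1, Mylip, Apoe, Ch25h, Nr1h3. Here Npc1 and Soat1, Apoe and Ch25h, and Ch25h and Nr1h3 could not be ordered. Abca1 went from the 8th to the 5th place and Ch25h from the 6th to the 9th.

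**Figure D3:**
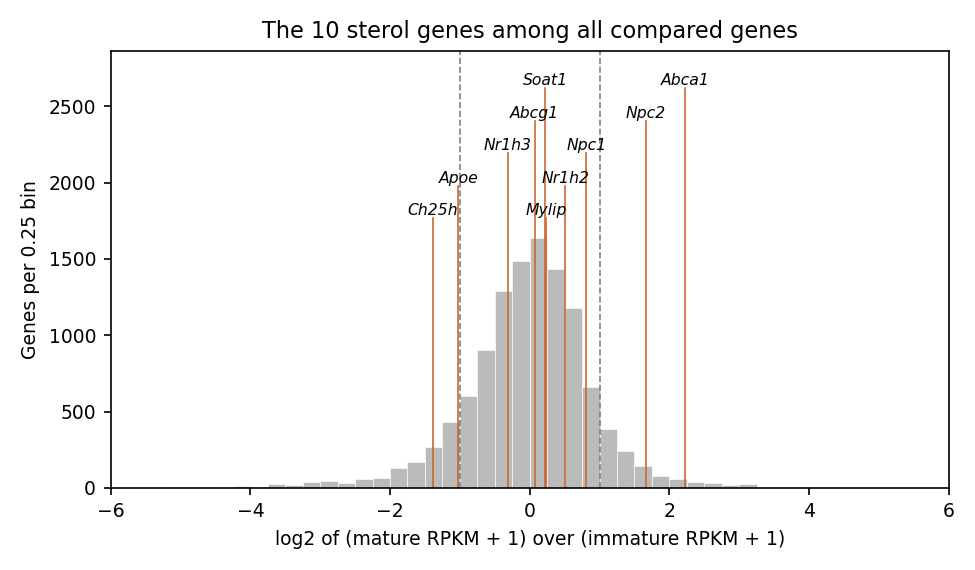
Number of genes per 0.25 bin of log2 of (mature RPKM + 1) over (immature RPKM + 1) for the 11547 compared genes (grey bars; the axis runs from -6 to 6 and leaves out 2 genes), with the 10 genes as labelled lines and 2-fold as dashed lines. Most of the 10 sit in the body of the distribution, and Abca1 at 2.23 and Npc2 at 1.66 sit in its upper tail.

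The genes nearest to Abca1 in level over the 2 libraries, by Euclidean distance of log2(RPKM + 1), were Itgav at a distance of 0.020, Serpinb9 at 0.042 and Ly96 at 0.096. They encode an integrin chain, an inhibitor of granzyme B and the LPS co-receptor MD-2. Their ratios were 5.20, 5.44 and 4.74. With 2 libraries a like pattern means only a like level in each.

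The other genes of the pathway were described by lists chosen with earlier results of these data known. The counts in each list stand beside 9.05% higher and 11.3% lower over all compared genes. Among 20 other LXR target genes, 13 reached 1 RPKM. Of these, 4 were at least 2-fold lower in the mature library, 1 higher and 8 within 2-fold. Their median log2 fold was -0.92, with 10 of 13 values below 0. The list holds Srebf1, which encodes SREBP-1, and whether the lower genes follow LXR or SREBP was not tested. Fasn, the fatty acid synthase, was at 37.9 and 6.22 RPKM, 6.10-fold lower (5.54 to 6.72). Fads1, a fatty acid desaturase, was 4.01-fold lower (3.45 to 4.67), and Lpcat3, which places polyunsaturated chains into phospholipids, 3.38-fold lower (2.95 to 3.87). Mertk, a receptor for apoptotic cells that also stands in the macrophage list, was 2.26-fold lower (1.86 to 2.77). Arl4c, a small GTPase, was the one higher gene, at a ratio of 2.38 (1.98 to 2.87), with reads over only 19.3% and 23.8% of its length, and was not past 2-fold with a pseudocount of 5 RPKM.

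Srebf1 and Fasn, which fit the same DR4 pattern, differed from Abca1. Srebf1 was at 25.7 and 18.9 RPKM, 1.36-fold lower (1.23 to 1.51). Reads were counted per gene, so transcripts from the Srebf1 promoter that holds the pattern were not told apart from those of its other promoters. Fasn, with the same 15 letters as Abca1, was 6.10-fold lower. In all promoters searched, 221 genes held the pattern and 56 of them were compared. Of these, 7 (12.5%) were higher and 7 (12.5%) lower, with a median log2 fold of -0.015. These values lie near those of all compared genes, at 9.05% higher, 11.3% lower and a median of 0.026.

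**Figure D4:**
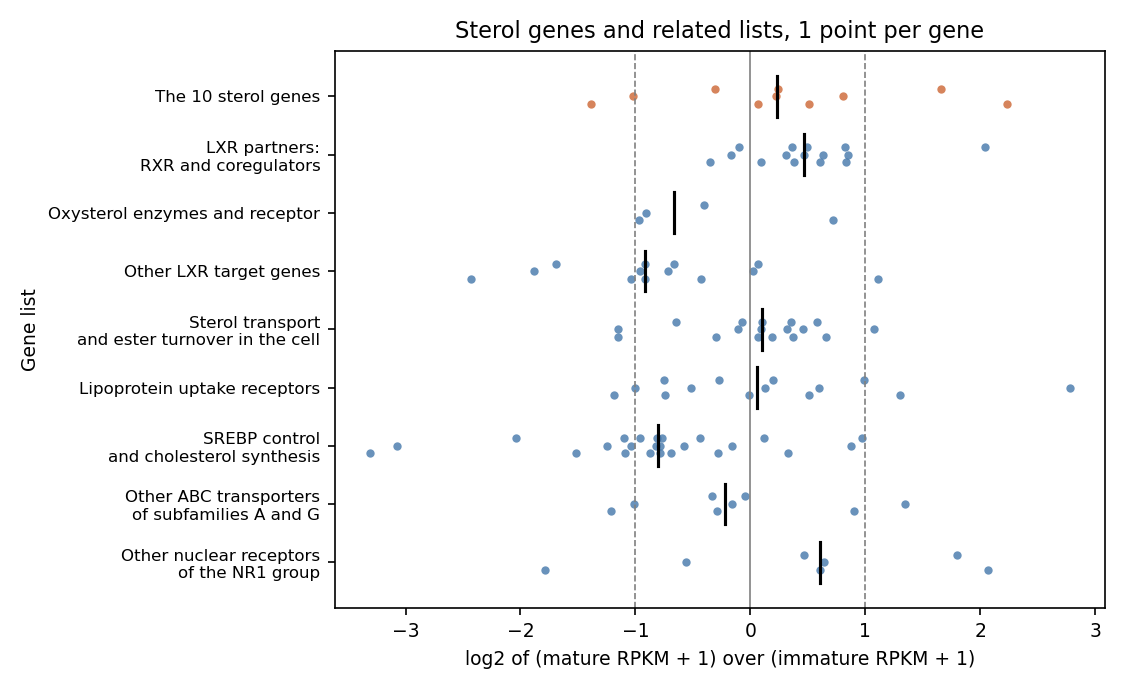
Log2 of (mature RPKM + 1) over (immature RPKM + 1) of each compared gene (1 point per gene; height within a row has no meaning) in the 10 genes and 8 related lists, with black bars at the list medians and dashed lines at 2-fold. The other LXR targets have a median of -0.92 and the SREBP and synthesis genes a median of -0.80.

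Among LXR partners, the RXR genes and coregulators, 15 of 18 reached 1 RPKM, 1 was higher, 0 lower and 14 within 2-fold, with a median of 0.47. The higher gene was Nrip1, a nuclear receptor cofactor also called RIP140, at 8.52 and 38.0 RPKM, ratio 4.46 (3.93 to 5.08). Rxrb stood at 15.2 and 20.0 RPKM, ratio 1.32 (1.13 to 1.53). Rxra had 8 and 3 reads, over 1.56% and 2.60% of its length, and stayed below the filter. Rxrg had 1 and 2 reads. With reads over so little of the Rxra gene model, its listed values cannot be read as absence of the transcript, and whether reads were lost in counting was not tested.

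Of 11 genes of other oxysterol enzymes and the oxysterol receptor, 4 reached 1 RPKM and 0 passed 2-fold. Cyp27a1, which makes 27-hydroxycholesterol in mitochondria, stood at 4.13 and 2.88 RPKM, ratio 0.699 (0.462 to 1.05). Gpr183, the receptor that follows oxysterols made from 25-hydroxycholesterol, stood at 12.7 and 6.02 RPKM, 2.11-fold lower (1.72 to 2.60) by the plain ratio and at a log2 fold of -0.97 with the pseudocount. With a pseudocount of 0.5 RPKM 2 genes of this list passed 2-fold downward, and with TMM scaling 1 did. Cyp46a1 and Cyp7b1 were not listed in either library.

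Genes of sterol transport within the cell lay mostly within 2-fold, 14 of 17 compared, with 1 higher, 2 lower and a median of 0.10. Scarb2, a lysosomal membrane protein, was 2.13 times (2.00 to 2.27) its immature level. Stard4, a cytosolic sterol carrier, was 2.46-fold lower (1.98 to 3.07) and Tmem97, a protein that binds NPC1, 2.42-fold lower (1.79 to 3.31). With a pseudocount of 5 RPKM neither of the lower genes passed. Scarb2, like the member Npc2, encodes a lysosomal protein. So does Lipa of the same list, which was 1.58-fold lower (1.49 to 1.66). With a pseudocount of 0.1 RPKM Soat2 was called higher beside Scarb2.

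For lipoprotein uptake, 2 of 14 compared genes were higher, 1 lower and 11 within 2-fold, with a median of 0.06. Cxcl16, a scavenger receptor for oxidised lipoprotein that is also a chemokine, had a ratio of 7.00 (6.53 to 7.51). Lrpap1, a chaperone of lipoprotein receptors, had a ratio of 2.47 (2.37 to 2.58). Msr1, the class A scavenger receptor, was 2.31-fold lower (2.16 to 2.47). With a pseudocount of 0.1 or 0.5 RPKM, or TMM scaling, 2 genes were lower. With a pseudocount of 0.1 RPKM, either rescaling to a common RPKM sum or upper quartile scaling, 3 genes were higher.

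Of the 8 lists, that of SREBP control and cholesterol synthesis had the most genes past 2-fold downward by count, 8 of 24 compared. It had 0 upward, a median of -0.80 and 20 of 24 values below 0. The lower genes were 33.3% of those compared in it, close to the 30.8% of the other LXR targets. Over all compared genes the share was 11.3%. The number past 2-fold downward was 4 with a pseudocount of 5 RPKM and 5 after rescaling without the 50 most abundant genes. Either rescaling put 1 gene past 2-fold upward. Fdps, an enzyme of the isoprenoid steps, was 14.6-fold lower (9.13 to 24.6), Cyp51 4.53-fold lower (3.96 to 5.19) and Mvd 2.98-fold lower (2.56 to 3.50). The Fdps value rests on 259 and 19 reads, over 51.8% and 27.6% of its length. Whether the members differ from that list was not tested.

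Among other ABC transporters of subfamilies A and G, 1 of 8 compared genes was higher and 2 lower. Abca8b went from 13 to 113 reads, a ratio of 8.14 (4.57 to 15.8), Abca13 was 5.17-fold lower (3.90 to 6.97) and Abcg3 4.48-fold lower (2.21 to 10.0). All of these stood below 3 RPKM, and none passed 2-fold with a pseudocount of 5 RPKM. Of the other nuclear receptors of the NR1 group, 7 of 18 were compared, 2 were higher and 1 lower. Vdr, the vitamin D receptor, had a ratio of 3.58 (3.33 to 3.85), Rora, on 11 and 92 reads, a ratio of 7.84 (4.18 to 16.2), and Pparg, a lipid-sensing receptor that acts upstream of LXR in macrophages, was 4.04-fold lower (3.05 to 5.40). The other 4 stayed within 2-fold: Ppard at a ratio of 1.56, Rarg at 1.65, Nr1d2 at 1.61 and Rara at 0.669.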

How the data were processed

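Each of the 2 deposited tables lists genes with counts of uniquely placed reads, gene model length, percent of length covered and RPKM, per the file headers. The authors made RPKM from the counts and the total of counted reads, which was checked on every value. The build mm8 is named per the submitters' processing notes; strandedness, gene models, aligner and counting tool were not given in the sources used here. A gene not listed in 1 table was taken as 0 reads there. Symbols came from the RefSeq table of GRCm38.p6 for 16220 of 18090 identifiers; the deposited percent coverage was used for checks only.

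Ratios carry exact Clopper-Pearson intervals (scipy 1.17.1, Python 3.11.15); they cover counting error only, since PCR copies among the reads cannot be counted out. In a gene of 1000 bases, 3 reads equal 0.397 RPKM (immature) or 0.372 RPKM (mature). TMM factors came from edgeR 4.0.16; no count model was fitted, since there is 1 library per group. Calls and intervals were tested on simulated counts with Poisson error only. These counts hold no variation between cultures or sorts, so they cannot show how the calls would hold in replicates. Alternatives covered the pseudocount, the filter, 5 other scalings, the fold line and coverage.

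The members and lists were chosen with earlier results of these data known. Named genes are the members, up to 4 per direction and context list, 7 genes set by name, the 3 nearest to Abca1, and the 3 most abundant of each marker list of other cells; others were named after their values were seen. Some genes that this rule names are not reported here.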

Additional observations from a re-analysis of the deposited data

How the results depend on the processing

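No paired analysis was possible because each group holds 1 library, and no library could be left out. The 2 higher members, Abca1 and Npc2, became 1 at a 4-fold line. The 2 lower members became 0 with a pseudocount of 5 RPKM and at 4-fold, and 1 (Ch25h) under either rescaling to a common RPKM sum and when the whole counting interval had to lie beyond 2-fold. At 1.5-fold Npc1 joined as the 3rd higher member. The median log2 fold of the members, 0.23, lay between 0.18 and 0.33 under the alternatives run on it. Over all genes the 1045 higher and 1310 lower became 469 and 686 with a pseudocount of 5 RPKM, 2474 and 2503 at 1.5-fold and 197 and 316 at 4-fold. Rescaling without the 50 most abundant genes shifted every log2 ratio by 0.114, the most of the 5 scalings. Of 50 member ratios under these scalings, 43 stayed within their counting interval and 7 moved past it, with no change of direction. Of 160 counts in the context lists, 138 stayed within 1.5 times the reported count and 22 did not. The depth limits Nr1h3, Ch25h, Apoe and Mylip most, with 33 to 135 reads per library.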
